A study of Arabidopsis thaliana with 6 samples.

Results

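The 3 genes described here, CSLA01 (AT4G16590), EXPA8 (AT2G40610) and TBL26 (AT4G01080), encode proteins that build, modify or loosen the plant cell wall. Each was found through the platform's gene symbols and had 1 probe set on the array (19193_at, 19660_at and 12953_at), so that they are 3 of the 3602 genes named by a probe set that is paired with a single gene. The genes were selected on the differences of their signals from the L arrays, seen in these same 6 arrays, so the signals are given as a description, with no test. All 3 passed the filter on low values, which is set on the mean over all arrays.

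The leaf cell wall is a network of cellulose held together by hemicelluloses, among them xyloglucan, xylan and glucomannan, and embedded in pectin. Genes of the CSLA family encode Golgi enzymes that make the mannan and glucomannan backbone. TBL proteins add acetyl groups to wall polysaccharides, and TBL26 belongs, with TBL23, TBL24 and TBL25, to the members that act on mannans. Alpha-expansins such as EXPA8 are secreted proteins that loosen the contacts between cellulose and hemicellulose and allow the wall to extend.

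The study asked how Arabidopsis thaliana acclimates to light intensity, and measured transcript levels in rosette leaves that were not shaded. The plants were of accession Ws-2, with no genetic modification, at growth stage 3.90. Biotin-labelled RNA was hybridised to 6 single-channel arrays of 8297 probe sets, and each array stands for 1 code. The codes combine a start (CL or CV) with an ending (L, M or H): CLL, CLM and CLH on one side, CVL, CVM and CVH on the other. No label gives the meaning of the letters, so no light level is assigned to any array. For CLL and CVL the growth record lists M2 compost and a dark period of 16 hours at 15 °C. For the other codes it gives only a normal atmosphere and a humidity of 60%, which CLL and CVL share. Plants of all groups were thus of 1 genotype. The labels do not say how many plants were pooled for each array. With 1 array per code there was no replicate of any value, and differences between codes cannot be told apart from differences between single arrays.

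The deposited signals had been scaled to a common mean, with medians from 20.0 to 26.1. Leaf transcripts were bright on every array. RCA, the activase of Rubisco, had signals from 7731 to 10820, and LHB1B2, an antenna protein of photosystem II, from 4573 to 7526. Only these 2 of the 20 leaf markers, and 0 of 24 markers of flower, root and seed, were on the array under a name. Of 5 markers of senescing leaves only SAG29, a sugar transporter gene, was, with signals from 15.0 in CVL to 118.9 in CVH. The 3-prime to 5-prime signal ratio of GAPDH, a measure of RNA integrity, was 6.22 in CLH and 5.50 in CVH and between 2.81 and 3.76 on the other arrays. The same ratio of a ubiquitin control was 3.18 in CLH, 2.31 in CVH and between 2.43 and 3.12 on the others. CLH thus had the highest ratio of the 6 arrays for both controls, for ubiquitin by a small margin. CVH had the lowest for ubiquitin, so this control did not set the H arrays apart as a pair. The part of RNA integrity in the differences of H from L was not tested.

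In the CL arrays, CSLA01 and TBL26 were brighter at L than at M and H, whereas EXPA8 was brighter at M and H than at L. In the CV arrays EXPA8 was brighter at L than at M and H, and CSLA01 and TBL26 stayed bright at all endings. Each gene therefore differed between the starts in one direction at L and in the other direction at M and H.

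**Figure D1:**
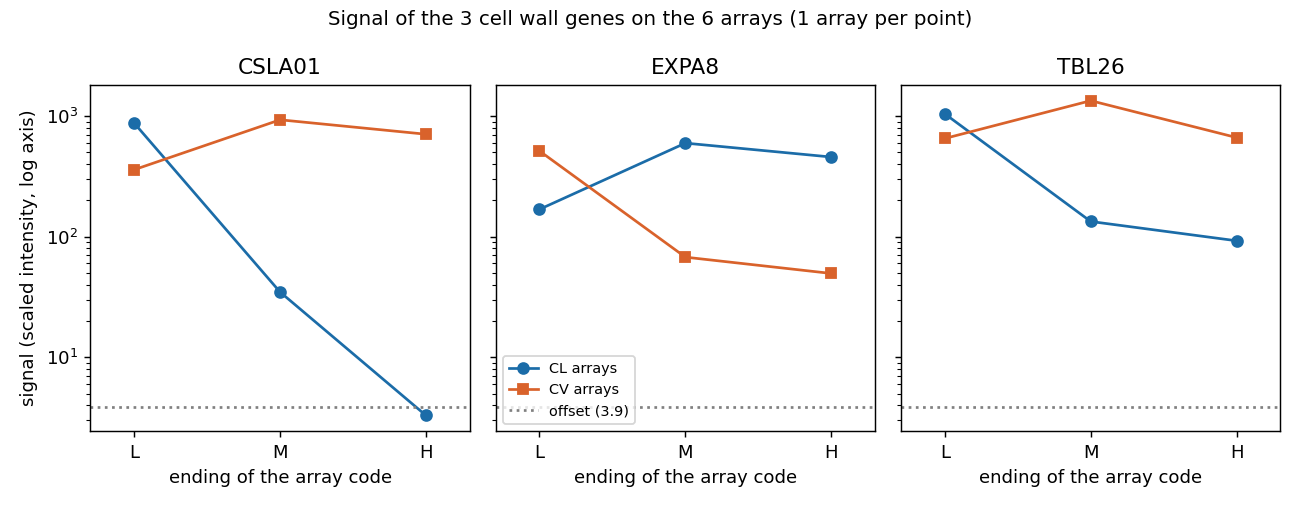
Signal (scaled intensity, log axis) of CSLA01, EXPA8 and TBL26 against the ending of the array code, with circles for the CL arrays, squares for the CV arrays and a dotted line at the offset of 3.9. Each point is 1 array, so there are no error bars. The CL and CV lines cross between L and M for all 3 genes, and CSLA01 in CLH (3.30) lies below the dotted line.

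CSLA01, the backbone synthase gene of the set, gave signals on the CL arrays of 875.4 at L, 34.8 at M and 3.30 at H. On the CV arrays it gave 358.9 at L, 930.5 at M and 706.6 at H. The CLM and CLH values stood apart below the other 4. On CLL the gene was brighter than 96.2% of all probe sets that are not controls, on CLM than 57.2% and on CLH than 17.4%, so its rank on the array moved with its signal. On the CV arrays it was brighter than between 91.0% and 96.0% of them.

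TBL26, the acetylation gene, gave signals on the CL arrays of 1043 at L, 133.7 at M and 92.5 at H. On the CV arrays they were 651.6, 1340 and 662.7. Here too CLM and CLH were the lowest of the 6 arrays. In contrast to CSLA01, its dimmest signal was 23.7 times the offset, so no array was near the floor of the measurement. In CLH it was still brighter than 76.5% of the probe sets.

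EXPA8, the expansin, gave signals on the CL arrays of 168.5 at L, 596.4 at M and 457.3 at H. On the CV arrays they were 513.9, 67.7 and 49.6. The CVM and CVH arrays were the lowest and CLL lay between them and the other 3. Its dimmest signal was 12.7 times the offset.

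Differences were computed as log2(signal + 3.9), an offset taken from the 20th percentile over the whole table. From L to M within CL, CSLA01 was lower by a log2 difference of -4.51 and TBL26 by -2.93, and EXPA8 was higher by 1.80. Of all 5773 probe sets kept, 4.12% were lower by at least 1 in this comparison and 4.35% were higher by at least 1. CSLA01 ranked 1 and TBL26 ranked 3 from the bottom, and EXPA8 ranked 35 from the top.

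From L to H within CL, the differences were -6.93 for CSLA01, -3.44 for TBL26 and 1.42 for EXPA8. Beside these, 6.74% of probe sets were lower by at least 1 and 4.69% were higher. The 3 genes kept the direction they had at M, with the same L array as the base of both differences. Between M and H within CL, CSLA01 was lower again by -2.43 and TBL26 by -0.51, and EXPA8 had a difference of -0.38. The size for CSLA01 is uncertain, because its CLH signal of 3.30 lies below the offset: the difference from L to H was -7.67 with an offset of 1 and -5.53 with an offset of 16.

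From L to M within CV the directions were the opposite ones, with 1.36 for CSLA01, 1.04 for TBL26 and -2.85 for EXPA8. Here 3.43% of probe sets were higher by at least 1 and 4.56% were lower. EXPA8 ranked 2 from the bottom, and CSLA01 and TBL26 ranked 73 and 185 from the top. The movement of EXPA8 was thus larger within CV than within CL, and that of CSLA01 and TBL26 larger within CL than within CV, a difference that was not tested.

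From L to H within CV, EXPA8 had a difference of -3.27, rank 4 from the bottom. CSLA01 had a difference of 0.97, just under 1. TBL26 had one of 0.024, so its signals in CVL and CVH were alike, and its sign turned (-0.10) when each array was centred on its median. In this comparison 7.74% of probe sets were higher by at least 1 and 5.72% were lower. Between M and H within CV all 3 genes had negative differences, -0.40 for CSLA01, -0.42 for EXPA8 and -1.01 for TBL26.

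**Figure D2:**
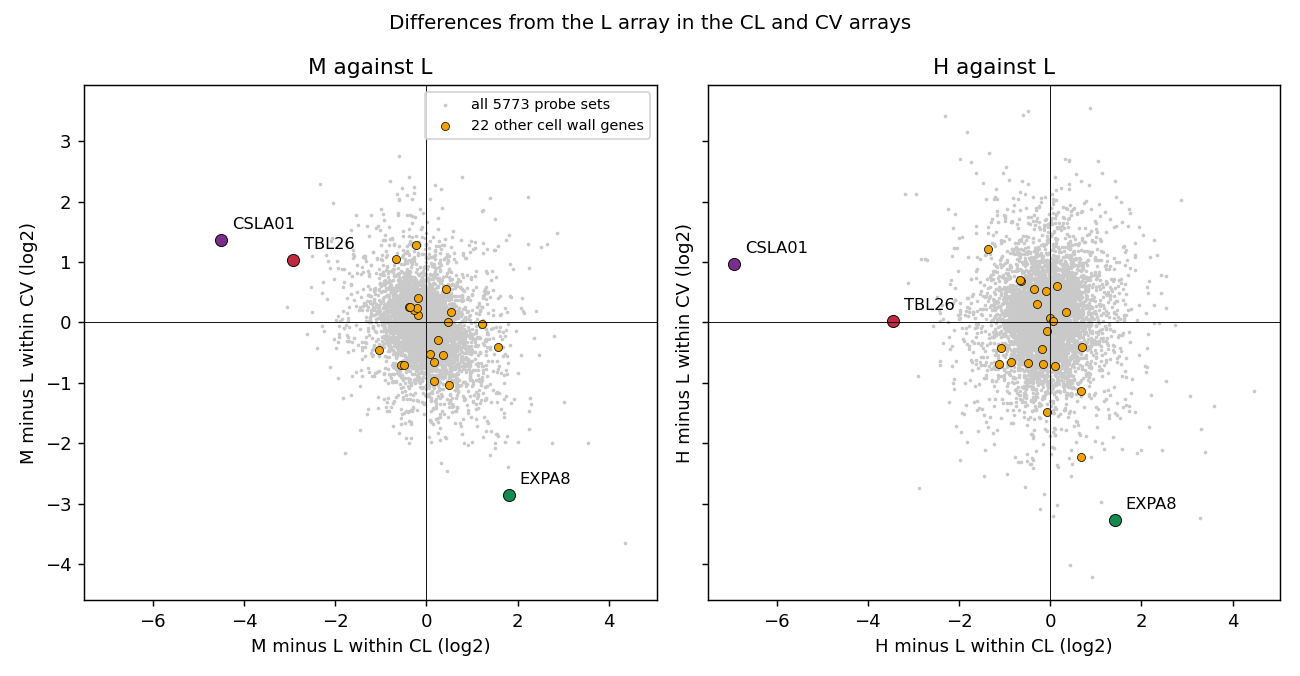
Log2 difference from the L array within CL (x axis) against that within CV (y axis), for M in the left panel and H in the right. Grey points are all 5773 probe sets, orange points the 22 other cell wall genes measured, and the large points the 3 genes, each value being the difference of 2 single arrays. CSLA01 and TBL26 lie far to the left in both panels and EXPA8 lies to the lower right, with CSLA01 at -4.51 and -6.93 on the x axis and EXPA8 at -2.85 and -3.27 on the y axis.

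Set against each other at the same ending, the starts differed in one direction at L and in the opposite direction at M and H. At L the difference of CV minus CL was -1.28 for CSLA01, -0.68 for TBL26 and 1.59 for EXPA8, where 7.6% of all probe sets were lower by at least 1 and 4.07% were higher. At M it was 4.59 for CSLA01, 3.29 for TBL26 and -3.07 for EXPA8, where 6.57% were higher and 11.5% were lower. At H it was 6.62 for CSLA01, 2.79 for TBL26 and -3.11 for EXPA8, where 7.12% were higher and 6.86% were lower. The value for CSLA01 at H rests on the CLH signal below the offset, and was 7.36 with an offset of 1 and 5.23 with an offset of 16. With the offset of 3.9, CSLA01 had the highest such difference of all probe sets kept at M and at H, TBL26 ranked 3 and 8 from the top, and EXPA8 ranked 11 and 13 from the bottom. These values come from the same 6 arrays as the differences within a start and add no independent observation.

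The range over all 6 arrays was 7.02 on the log2 scale for CSLA01, the widest of the 5773 probe sets on this scale, 3.80 for TBL26 (rank 11) and 3.49 for EXPA8 (rank 21), beside a median range of 0.99. Most of it lay within 1 start. For CSLA01 the range was 6.93 within CL and 1.36 within CV, for TBL26 3.44 and 1.04, and for EXPA8 1.80 and 3.27. The CSLA01 ranges of 7.02 and 6.93 are uncertain in size, because they rest on its CLH signal of 3.30, below the offset.

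CSLA01 and TBL26 put the 6 arrays in the same order, from the highest signal CVM, then CLL, CVH, CVL and CLM, to the lowest CLH. The order of EXPA8 was CLM, CVL, CLH, CLL, CVM and CVH. With no replicates, the gaps between neighbours can be set only beside the median residual SD of an additive fit over all probe sets (0.32 on the log2 scale), which also takes in whatever the endings do differently in CL and CV. For CSLA01 the gaps from CVM to CLL (0.088) and from CLL to CVH (0.31) were under it. For TBL26 only the gap from CVH to CVL (0.024) was, and for EXPA8 those from CLM to CVL (0.21) and from CVL to CLH (0.17). The widest gap of both CSLA01 (3.23) and TBL26 (2.25) was that from CVL to CLM.

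Across the 6 arrays, Pearson's r of the log2 signals of CSLA01 and TBL26 was 0.97 and Spearman's rho 1. Without CLM and CLH, the arrays farthest from the median of CSLA01, r over the remaining 4 arrays was 0.77. The correlation of EXPA8 with CSLA01 was -0.70 (rho -0.66) and with TBL26 -0.69 (rho -0.66). These are descriptions over arrays that the genes share, and the genes were chosen for their values there. The level of CSLA01 relative to TBL26 was not constant: the log2 difference between their signals, which belong to different probe sets and so are compared only between arrays, went in CL from -0.25 at L to -1.83 at M, and lay between -0.85 and 0.092 on the CV arrays. In CLH it was -3.74, a size that is uncertain because CSLA01 lies below the offset there.

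A log2 difference from L of at least 1 upwards at both M and H in CL, and of at least 1 downwards at both in CV, was found in 19 of the 5773 probe sets (0.329%), EXPA8 included. Of these 9 had a gene name, among them PORB, a protochlorophyllide reductase, and the dehydrin gene LTI30. A difference of at least 1 downwards at M and H in CL with values above 0 at both in CV was found in 32 probe sets (0.554%), CSLA01 and TBL26 included. Of these 12 had a name, among them LHCB4.3, which encodes an antenna protein, and DFR, an enzyme of anthocyanin synthesis. Both patterns were set after the values had been seen, and 12 of the 32 probe sets and 3 of the 19 had a signal below the offset on at least 1 array.

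The genes whose log2 signals followed each member most closely over the 6 arrays were taken from the 203 named genes with a range of at least 2 on the log2 scale. Their r values are the extremes of 203 genes over 6 arrays, so values of large size follow from the selection and are a description. Some of the genes were dim: AT4G02360 lay below the offset on 3 arrays, AT4G19750 and ICL on 2, and several others on 1. For CSLA01 the genes most alike were TBL26 (r = 0.97), AT2G27420 (0.97), AT2G36630 (0.94), LHCB4.3 (0.92) and AT1G05350 (0.91, but a rho of 0.54). The antenna gene LHCB4.3 had signals of 1103, 514.6 and 247.5 at L, M and H in CL, and of 632.0, 1316 and 1876 in CV. It shared the low CLM and CLH signals of CSLA01, but was brightest in CVH. For TBL26 the genes were CSLA01, AT2G27420 (0.95), AT2G36630 (0.94), AT4G19750 (0.88) and LHCB4.3 (0.84), so AT2G27420, AT2G36630 and LHCB4.3 were among those of both genes.

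Opposite to CSLA01 ran LTI30 (r = -0.94), ICL, the isocitrate lyase of the glyoxylate cycle (-0.94), and COR47, another dehydrin (-0.92). Opposite to TBL26 ran AT2G13660 (-0.97), LTI30 (-0.96) and ICL (-0.95). LTI30 had signals of 77.3, 545.1 and 677.8 at L, M and H in CL, and of 239.4, 57.3 and 100.7 in CV, which is the exact reverse of the order of CSLA01 and TBL26. ICL was dim throughout, from 1.50 in CVM to 20.6 in CLH.

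For EXPA8 the genes most alike were AT4G32340 (r = 0.98), AT1G52140 (0.97), AT3G15450 (0.95), AT4G26540 (0.92) and AT3G47800 (0.92). AT4G32340 had signals of 314.4, 782.2 and 636.3 at L, M and H in CL, and of 634.5, 179.2 and 216.0 in CV. As for EXPA8, CLM was the highest, and CVM and CVH were the lowest. Opposite to EXPA8 ran AT4G02360 (-0.95), APL3, a large subunit of the ADP-glucose pyrophosphorylase of starch synthesis (-0.93), and FaTA, an acyl-carrier-protein thioesterase of fatty acid synthesis (-0.92). The APL3 signal was 107.0, 51.2 and 55.4 at L, M and H in CL, and 34.2, 106.5 and 191.5 in CV, highest where EXPA8 was lowest.

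**Figure D3:**
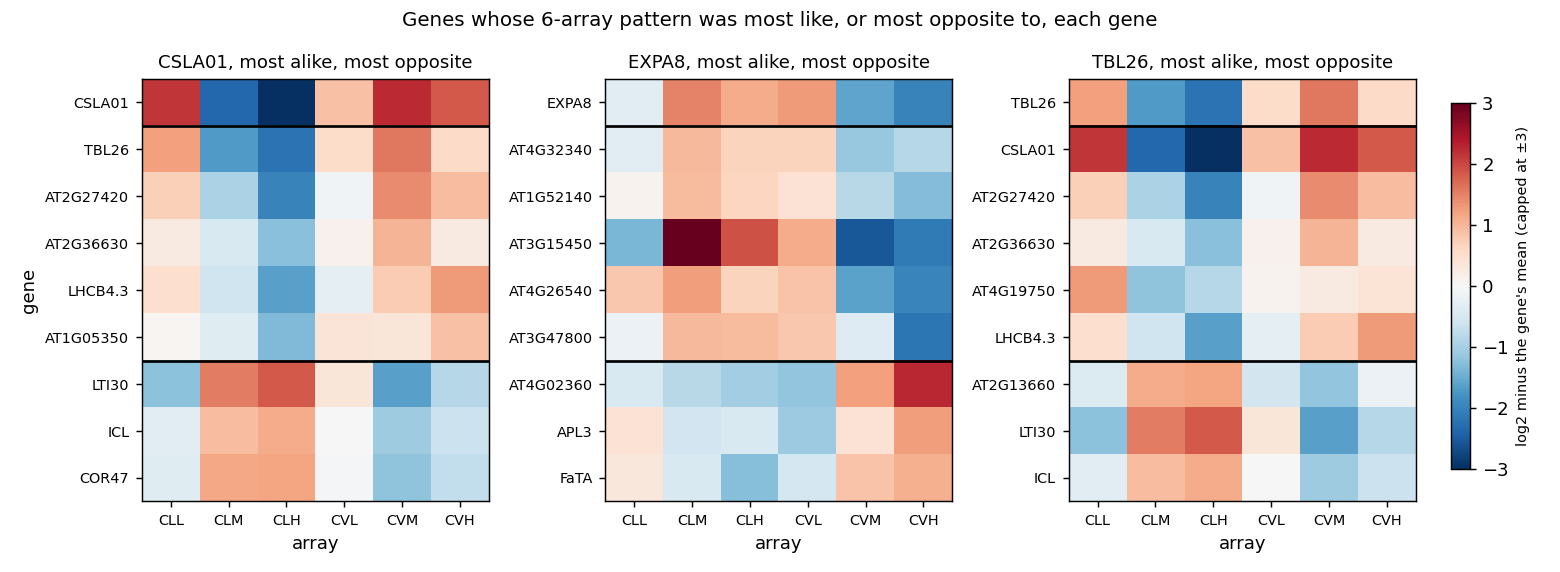
Log2(signal + 3.9) minus the mean of each gene over the 6 arrays (colour, capped at 3 either way), with arrays in columns and, in each panel, the gene itself in the top row, the 5 genes most like it below and the 3 most opposite at the bottom. The CLM and CLH columns are blue for CSLA01 and TBL26 and their likes and red for LTI30 and ICL, and the CVM and CVH columns are blue for EXPA8 and its likes.

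Other cell wall genes were taken from 8 lists set by gene symbol, which together hold 40 genes on the array besides the 3 members, 22 of them above the filter on low values. Their differences from L lay between -2.23 and 1.57. These ends rest on signals of 3.00 (CSLC5 in CVH) and 4.90 (GH9B13 in CLL), below or near the offset. The 3 genes were selected for their differences from L, so their span is no measure for the other genes. At M within CL, 1 of the 22 was lower by at least 1 and 2 were higher (median -0.06, against -0.04 over all probe sets). At H within CL, 3 were lower and 0 higher (median -0.13, against -0.09). At M within CV, 1 was lower and 2 were higher (median -0.0027, against -0.04), and at H within CV 3 were lower and 1 was higher (median -0.27, against 0.10). With so few genes, counts of 0 to 3 of 22 are not read as different from the 3.43% to 7.74% of all probe sets given above.

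Within the expansins, 5 of the 6 other genes on the array passed the filter. EXPB1, a beta-expansin, had signals of 99.7, 142.4 and 162.5 at L, M and H in CL, and of 292.0, 139.6 and 130.7 in CV. Its differences from L were 0.50 and 0.68 at M and H in CL and -1.04 and -1.14 in CV. Their signs are those of EXPA8, at a smaller size. A second probe set for EXPB1 gave 0.40, 0.35, -0.90 and -1.04. On both probe sets the CV differences start from CVL, the brightest of the 6 arrays for EXPB1. The low CVM and CVH signals of EXPA8 were not shared. For EXPB1, CVM minus CLM gave -0.03 and CVH minus CLH -0.31, where EXPA8 had -3.07 and -3.11. The second probe set gave 0.35 and 0.26. EXPA4, the alpha-expansin with the next highest signal, had 150.8, 204.4 and 117.8 in CL and 109.4, 162.2 and 161.5 in CV, with differences between -0.35 and 0.55. EXLA2, an expansin-like gene, had -1.37 at H in CL and 1.22 at H in CV, from signals between 3.10 and 22.7, and those of EXPB2 lay between -0.67 and 0.71.

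Of the 12 other TBL and wall acetylation genes on the array, 7 passed the filter. TBL23 and TBL24, which act on mannans like TBL26 and were picked for that role after their values had been seen, had signals between 21.0 and 36.5 and between 28.3 and 51.6. All 8 of their differences from L were at most 0.66 in size, so neither had the low CLM and CLH signals of TBL26. The largest differences in the list were those of TBL37 (-1.48 at H in CV), TBL33 (1.23 at M in CL, from a signal of 4.90 in CLL), TBL45 (-1.13 at H in CL) and TBL43 (-0.98 at M in CV). The TBL43 value ends at a signal of 2.40 in CVM, below the offset.

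The mannan list held CSLA03 besides CSLA01, and its signals, between 0.80 and 10.0, left it below the filter. Of the 4 other cellulose synthase-like genes 2 passed. CSLC5, of the family that makes the xyloglucan backbone, had -2.23 at H in CV, from a signal of 28.4 in CVL to one of 3.00 in CVH, which is below the offset. CSLB03 had 1.28 at M in CV, from a dim signal of 7.60 in CVL to one of 24.1 in CVM. The 2 xyloglucan enzymes that passed, XTH32 and EXGT-A3, had differences between -1.09 and 0.23 and between -0.68 and 0.08, and the 1 pectin gene that passed, ATPMEPCRB, had differences between -0.72 and 0.37. A second, dimmer probe set for ATPMEPCRB gave 0.29 and 0.58 at M and H in CL and 0.30 and -0.14 in CV. At M in CV the brighter probe set had the opposite direction (-0.54). Among the 5 endoglucanase genes of family GH9 that passed, the largest were those of GH9B13 (1.57 at M in CL), GH9B8 (1.05 at M in CV), GH9C3 (-0.70 at M in CV) and GH9B6 (-0.68 at H in CV). The GH9B13 value starts from a signal of 4.90 in CLL, near the offset. No gene of the list of wall structural proteins was on the array under a name.

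**Figure D4:**
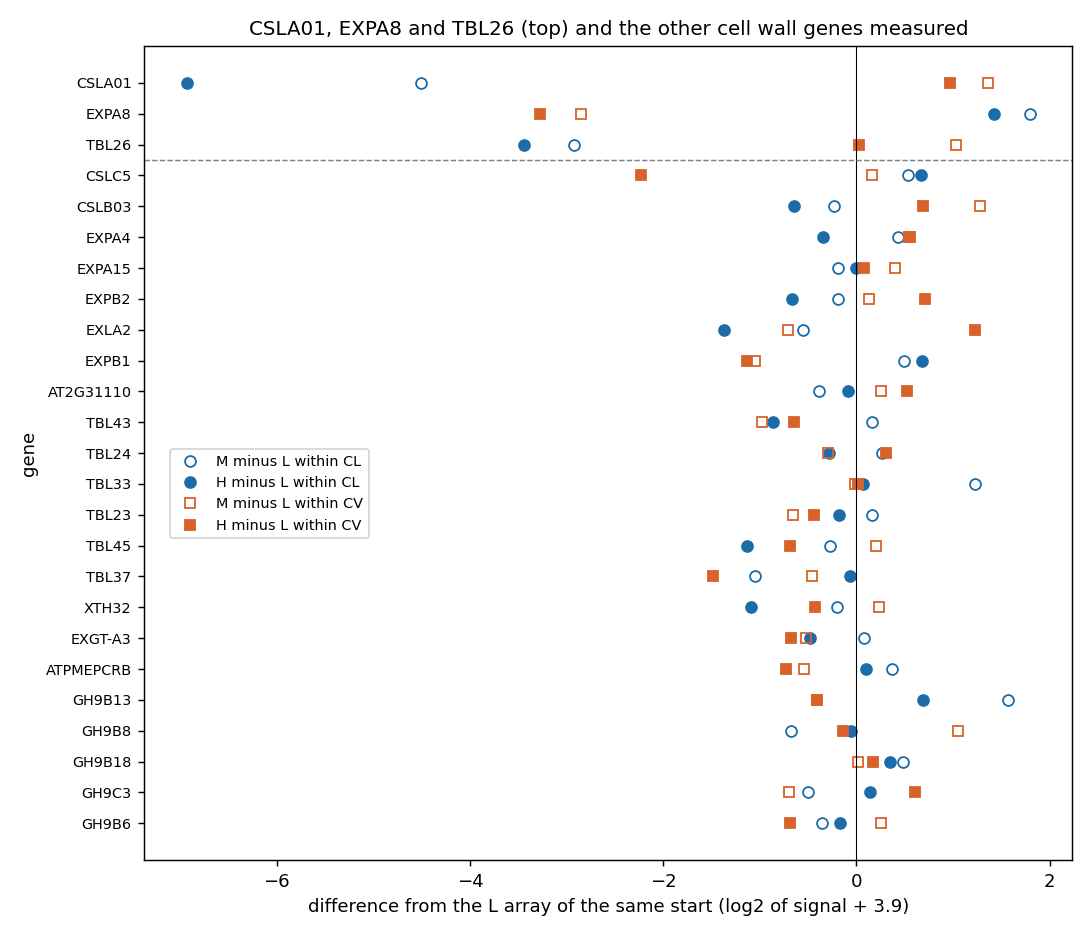
Log2 difference from the L array of the same start (x axis) for CSLA01, EXPA8 and TBL26, above the dashed line, and the 22 other cell wall genes, below it. Blue circles are CL arrays, orange squares CV arrays, open symbols M and filled symbols H, and each symbol is the difference of 2 single arrays. Below the dashed line the symbols lie between -2.23 and 1.57.

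The 22 genes were tested in a limma fit over all 5773 probe sets, with start and ending as additive terms and 2 residual degrees of freedom. None of them passed a Benjamini-Hochberg adjusted p under 0.05 in limma for CV against CL, where the lowest adjusted p was 0.42 and the median difference -0.04 (-0.10 over all probe sets). In that contrast limma called 2 probe sets (0.0346%), both without a gene name here, and 748 had an unadjusted p under 0.05. For M against L and H against L limma called 0% of probe sets, with 74 and 349 at an unadjusted p under 0.05, and the lowest adjusted p of the 22 genes was 0.999 and 0.75. With 1 array left out the number of probe sets called ranged from 1 to 257 for CV against CL (257 without CVL, 251 without CLL), from 0 to 38 for M against L (38 without CVL) and from 0 to 64 for H against L (64 without CLL), and 0 of the 22 genes was among them in any of these fits. Nothing says whether the plants of different arrays were grown separately, so the spread between arrays behind these p-values may be technical. That spread also takes in whatever the endings do differently in CL and CV. Opposite changes in CL and CV cancel at least in part in M against L and H against L. The additive fit therefore cannot show whether any of the 22 genes had such a pattern. Fewer cells with a transcript and less transcript per cell cannot be told apart in RNA from whole leaves.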

How the data were processed

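The table deposited by the authors holds linear intensity values for 6 arrays of 8297 probe sets. The authors had scaled them, as the equal means after trimming 2% at each end show, but not quantile normalized them. The software behind them is not stated in the labels, and the table used holds no detection calls. After the 50 control probe sets were set aside, the 30% with the lowest mean (2474 probe sets, mean up to 8.85) were left out. Values were analysed as log2(value + 3.9), which understates differences of dim probe sets. An additive fit used limma 3.58.1 in R 4.3.3 (lmFit, eBayes with an intensity trend) and was tested on simulated data. Differences between single arrays have no test.

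Names come from the annotation of the platform, brought up to date with the TAIR10.1 gene table, which was used for names only. One gene was paired with 3794 probe sets, all matched to a locus, several genes with 70 and none with 4383. Where a gene had more than 1 probe set, the brightest stood for it. The members and lists were chosen with earlier results of these data known. Named besides the members were the 5 genes with the highest and the 3 with the lowest Pearson r, and of each list up to 4 genes with the largest difference from L. Alternatives were other offsets, scalings, filters and model terms, and leaving out each array.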

Additional observations from a re-analysis of the deposited data

Results flagged for a closer look

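CSLA01 and EXPA8 at M and H, and TBL26 at M, moved from L in opposite directions in CL and CV, on 1 array each, and this difference between the starts was not tested. For CSLA01 the change in CV exceeded that in CL by 5.87 on the log2 scale at M and by 7.90 at H. The size at H is uncertain, because the CSLA01 signal in CLH (3.30) lies below the offset. For EXPA8 the difference was -4.65 at M and -4.69 at H. For TBL26 it was 3.96 at M and 3.47 at H, where the change in CV was 0.024, and -0.10 with each array centred on its median, so no opposite direction is held for TBL26 at H. Of the 22 other cell wall genes, EXLA2 at H was the only case with opposite changes of at least 1 on both sides, differing by 2.59 with signals of 3.40 in CLH and 7.50 in CVL. Over all probe sets, 1.68% at M and 1.70% at H had opposite changes of that size. With 22 genes, 0 at M and 1 at H are not read as different from these shares. Opposite signs of any size were found for 16 of the 22 genes at M and 11 at H, beside 58.0% and 48.6% of all probe sets.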

How the results depend on the processing

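The 21 differences of the 3 genes were recomputed under 4 alternatives, and 78 of the 84 values moved by less than the median residual SD of 0.32. With an offset of 16, CSLA01 changed from L by -4.13 at M and -5.53 at H in CL, and with an offset of 1 by -7.67 at H. TBL26 from L to H in CV turned to -0.10 with median centring. Quantile normalization moved none of the 21 past that SD. The count of limma calls for CV against CL was 0 without the intensity trend and 0 without the ending in the model. Leaving out 1 array, which leaves 1 residual degree of freedom, gave counts between 1 (without CLM or CVM) and 257 (without CVL) for CV against CL, with 251 without CLL, 55 without CLH and 57 without CVH. For M against L the counts were between 0 and 38 (without CVL), with 16 without CLL. For H against L they were between 0 and 64 (without CLL), with 54 without CVL, 2 without CVH and 3 without CLH. The cause was not tested, beyond the loss of 1 degree of freedom. The number of probe sets past a difference of 1 from L to M in CL was 489, but 165 with an offset of 16 and 878 with no filter. From L to H in CL it was 660, 254 and 1090, from L to M in CV 461, 147 and 755, and from L to H in CV 777, 326 and 1164. The counts with no filter also take in the 2474 probe sets that the filter leaves out. They are therefore counts over a larger total than the others. Arrays were paired by ending in the additive fit. No paired analysis was possible because each code has 1 array, where pairing by replicate number is meant. Signals near or below the offset limit what can be said of CSLA01 in CLH.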
